A study of Mus musculus with 8 samples.

Results

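The genes described here encode the NF-κB transcription factor subunits and the proteins that hold them back or release them: the subunit genes Rela, Relb, Rel, Nfkb1 and Nfkb2, the IκB inhibitor genes Nfkbia, Nfkbib and Nfkbie, the ubiquitin-editing inhibitor gene Tnfaip3 (A20) and the IκB kinase gene Ikbkb. They were taken by gene name from the array's annotation, with every non-control probe kept. This gave 10 genes on 14 probes, out of 39419 probes carrying 31890 gene names. All embryos came from C57BL/6 x 129S1/SVImJ F1 mothers mated to Tg(Ly6a-GFP) males, so every group carried the same transgene, in which GFP marks cells using Ly6a (Sca-1) regulatory sequence. From 100 pooled embryos at E10.5, the AGM region (aorta, gonad and mesonephros) and the umbilical and vitelline arteries were dissected and sorted, untreated, into 4 groups. Hematopoietic cluster cells, GFP+ (30000 cells) and GFP- (130000), were CD31+ VEC+ ESAM+ Kit+, and endothelial cells, GFP+ (70000) and GFP- (300000), were CD31+ VEC+ ESAM+ Kit-. The RNA of each group was divided in 2 before amplification and put on 2 one-colour arrays, 8 arrays in all, so the replicates are technical and every p-value below measures only the spread of amplification, labelling and hybridisation within 1 pool of embryos.

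NF-κB is a dimer that IκB proteins keep in the cytoplasm. In the canonical route, receptors for tumor necrosis factor, interleukin-1 or bacterial products activate the IκB kinase complex, IκB is degraded, and RelA and p50 dimers enter the nucleus and switch on inflammatory genes, among them the genes of their own inhibitors. In the alternative route the kinase NIK drives processing of p100 to p52, the partner of RelB. Hematopoietic clusters form from arterial endothelium in the embryo, and inflammatory signalling is the subject named in the title of the study.

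Levels are log2 of the processed spot signal minus the array's 75th percentile, so that 0 is a spot as bright as that percentile. A level is set only against the same probe on other arrays. The 75th percentiles lay between 708 and 1477 signal units, 55.4% to 64.5% of the spots on an array were well above background, and no spot was saturated. In the sort genes, Ly6a averaged -0.53 in GFP+ and -3.91 in GFP- cluster cells, and 0.39 in GFP+ and -3.67 in GFP- endothelial cells. Kit averaged 2.87 (GFP+) and 1.98 (GFP-) in the cluster sorts, against 1.32 (GFP+) and 1.34 (GFP-) in the endothelial sorts, so Kit RNA was higher in the Kit+ sorts but well above background in the Kit- sorts. In whole sorted groups, fewer cells of a type and less RNA per cell cannot be told apart.

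2 sets of sequences carry what follows. The first is the only probe of Ikbkb and both probes of Relb, the member with 2 probes that gave the same calls by GFP. Tnfaip3 also has only 1 probe. The Ikbkb and Relb probes are printed with their mm9 positions from the array files, and the capitals mark the 9 bases that the Relb probes share. An annotation of that build was not used here, so the exon is not named.
Ikbkb probe, chr8:23770254-23770313, minus strand: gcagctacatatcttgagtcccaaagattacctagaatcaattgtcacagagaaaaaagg
Relb brightest probe, chr7:20191722-20191781, minus strand: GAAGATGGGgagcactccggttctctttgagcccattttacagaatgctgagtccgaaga
Relb second probe, chr7:20191773-20191832, minus strand: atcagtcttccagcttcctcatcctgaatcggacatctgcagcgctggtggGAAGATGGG

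The second set is the 250 bases before 1 annotated start of 3 members, from RefSeq on GRCm38.p6: Tnfaip3, which differed most between groups, Nfkb2, which differed little, and Nfkbia, for which no difference was detected. Capitals mark matches to the κB consensus, the 10-base sequence bound by NF-κB dimers, searched on both strands.
Tnfaip3, chr10:19015411-19015660, minus strand: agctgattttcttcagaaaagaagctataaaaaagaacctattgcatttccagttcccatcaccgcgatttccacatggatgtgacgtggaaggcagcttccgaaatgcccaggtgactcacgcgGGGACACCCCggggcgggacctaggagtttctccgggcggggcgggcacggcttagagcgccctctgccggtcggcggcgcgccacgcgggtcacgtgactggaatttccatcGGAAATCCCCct
Nfkb2, chr19:46304487-46304736, plus strand: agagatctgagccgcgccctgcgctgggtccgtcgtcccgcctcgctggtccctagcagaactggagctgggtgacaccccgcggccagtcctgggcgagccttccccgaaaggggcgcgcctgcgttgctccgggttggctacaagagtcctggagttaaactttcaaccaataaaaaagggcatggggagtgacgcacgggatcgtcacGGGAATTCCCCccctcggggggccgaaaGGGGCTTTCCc
Nfkbia, chr12:55492648-55492897, minus strand: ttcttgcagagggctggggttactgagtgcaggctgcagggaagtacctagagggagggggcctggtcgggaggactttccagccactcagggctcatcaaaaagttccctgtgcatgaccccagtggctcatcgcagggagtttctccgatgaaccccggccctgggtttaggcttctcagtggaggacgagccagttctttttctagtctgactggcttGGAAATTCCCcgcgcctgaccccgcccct
The first letter of a match lay 125 and 12 bases before the start in the Tnfaip3 window and 29 bases before it in the Nfkbia window. In the Nfkb2 window the matches began at 39, 38 and 11 bases, the first pair overlapping on opposite strands. A second Tnfaip3 window in the table held no match, and each of 2 further Nfkb2 windows held 1. The promoter table held 7 of the 10 members (not Nfkb1, Relb or Ikbkb), and 5 of those 7 had at least 1 match in some window: Nfkb2, Nfkbia, Nfkbie, Rel and Tnfaip3. No match was found for Rela or Nfkbib in these windows. A match was present for 4.46% of the 27018 genes in the table and in 3.90% of its 32841 windows. These matches describe the letters and do not show binding.

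Of the 10 genes, 9 were well above background on all 8 arrays and were tested with limma in 1 fit over 19538 genes. In both cluster and endothelial cells, Tnfaip3 and Ikbkb were higher and Relb was lower in GFP+ than in GFP- cells. Nfkb2 was slightly lower in GFP+ than in GFP- cluster cells, and among GFP+ cells Nfkb1 was higher in cluster than in endothelial cells. The levels of Rela, Nfkbia and Nfkbie, and of the brightest Nfkbib probe, varied little over the 4 groups, while the other Nfkbib probes differed in opposite directions in endothelial cells. Between GFP+ and GFP- cluster cells 4 of the 9 tested members passed an adjusted p of 0.05, 2 in each direction, beside 32.7% of all genes tested. Between GFP+ and GFP- endothelial cells 3 of 9 passed, 2 higher and 1 lower, beside 51.5% of all genes. These counts do not set the members apart from other genes. With normexp background correction of the raw spot means, under which 119 and 94 of all genes passed in these 2 comparisons, no member passed, although 3 in each had an unadjusted p under 0.05. Under it Tnfaip3 differed by 0.61 in cluster and 0.73 in endothelial cells, Ikbkb by 0.46 and 0.53, and Relb by -0.39 in both, with adjusted p from 0.252 to 0.638. Without a filter on dim probes the smaller calls given below were lost as well, those of Nfkb2, of Rela, of Tnfaip3 between GFP- classes and of the Nfkb1 interaction (adjusted p from 0.0697 to 0.118).

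**Figure D1:**
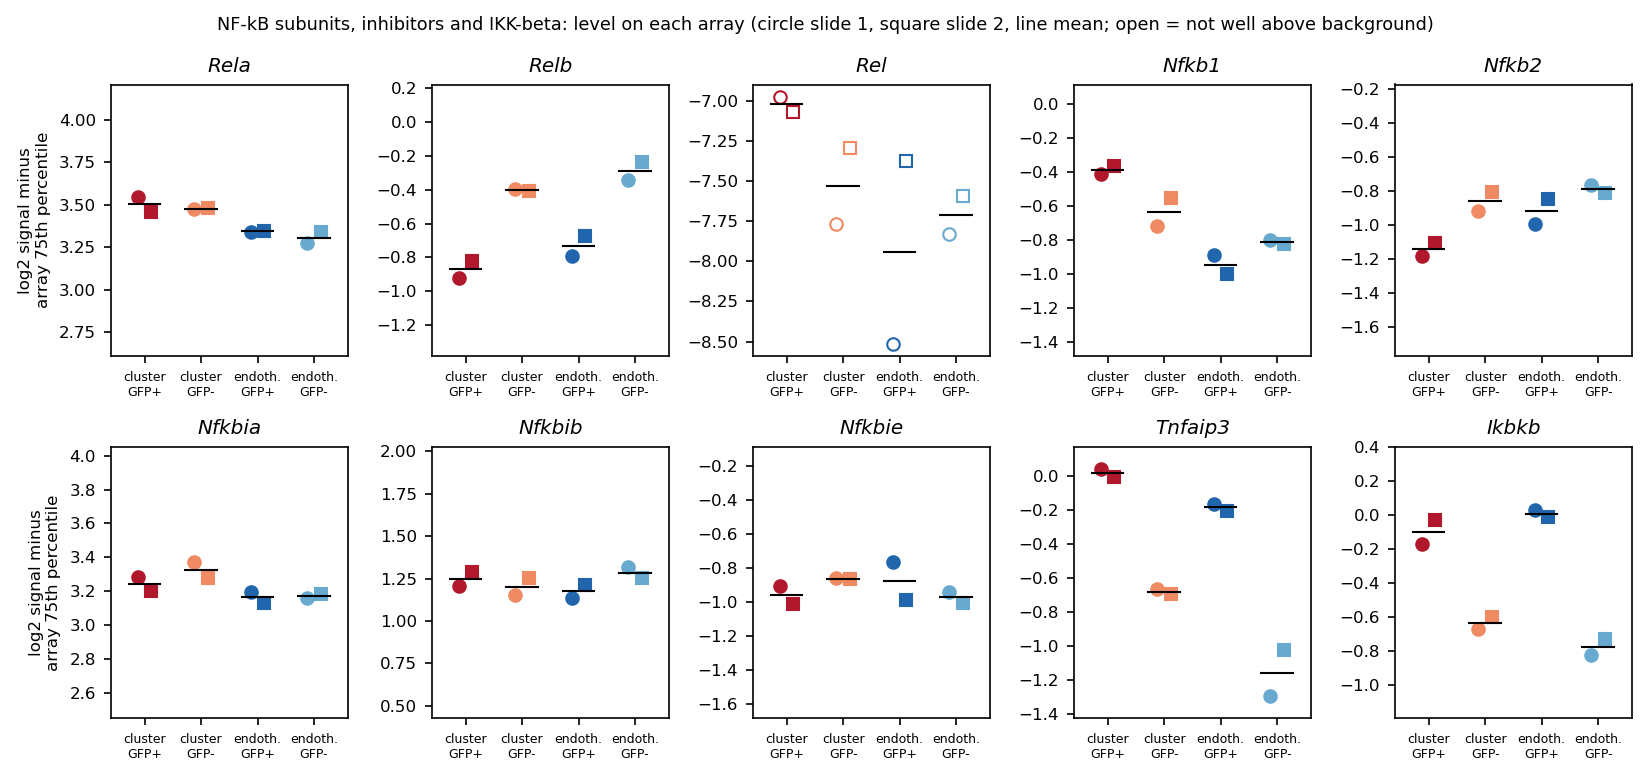
Level of each member (brightest probe, log2 signal minus the array's 75th percentile, all vertical axes except that of Rel spanning the same number of log2 units) on each of the 8 arrays, for cluster (GFP+, GFP-) and then endothelial (GFP+, GFP-) sorts, with circles for slide 1, squares for slide 2, lines for group means and open symbols where a spot was not well above background. Tnfaip3 and Ikbkb lie higher and Relb lower on the arrays of both GFP+ groups, while the 4 groups of Rela and of Nfkbia lie close together.

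Rela encodes p65, the main activating subunit of the canonical route. Its level was 3.54 and 3.46 in GFP+ cluster cells, 3.47 and 3.48 in GFP- cluster cells, 3.34 and 3.34 in the GFP+ endothelial sort and 3.27 and 3.34 in GFP- endothelial cells. The 2 cluster groups overlapped, and both lay above the endothelial groups by a small amount. GFP+ over GFP-, the log2 fold change was 0.02 (95% confidence interval -0.10 to 0.15, adjusted p = 0.749, limma) in cluster cells and 0.04 (-0.09 to 0.16, adjusted p = 0.550) in endothelial cells. Rela was 1.12-fold higher in GFP+ cluster than in GFP+ endothelial cells (log2 fold change 0.16, SE 0.05, adjusted p = 0.0421), but with the slide as a block the adjusted p was 0.0521. It was also between 0.0572 and 0.159 when any 1 array other than GFP+ cluster replicate 2 was left out, with values from 0.12 to 0.16. Among GFP- cells, Rela differed between cluster and endothelial cells by 0.17 (SE 0.05, adjusted p = 0.0575), which missed the threshold. After quantile normalization that difference was 0.27 (adjusted p = 0.0140), and the GFP difference in endothelial cells was 0.22 (adjusted p = 0.0122), so both passed under that scaling.

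Nfkb1 encodes p105, which is processed to p50, the usual partner of RelA. Its brightest probe (mm9 chr3:135254550-135254609) read -0.41 and -0.37 in GFP+ cluster cells, -0.72 and -0.55 in GFP- cluster cells, -0.89 and -1.001 in the GFP+ endothelial sort and -0.80 and -0.82 in GFP- endothelial cells. No groups overlapped, and the GFP+ cluster arrays were the highest while the GFP+ endothelial arrays were the lowest. Nfkb1 was 1.47-fold higher in GFP+ cluster than in GFP+ endothelial cells (log2 fold change 0.55, SE 0.07, adjusted p = 0.00213, limma). GFP+ over GFP-, it differed by 0.24 in cluster cells (95% confidence interval 0.06 to 0.42, adjusted p = 0.0509) and by -0.13 in endothelial cells (-0.32 to 0.05, adjusted p = 0.170), neither of which passed. The cluster difference was past the threshold after quantile normalization (0.27, adjusted p = 0.0394) and without GFP- cluster replicate 2 (0.33, adjusted p = 0.0439), but was 0.16 (adjusted p = 0.214) without GFP- cluster replicate 1. The difference between those differences was 0.38 (SE 0.10, adjusted p = 0.0408), the only member of 9 past the threshold for such an interaction, beside 31.1% of all genes. Within slide 1 it was 0.39 and within slide 2 it was 0.36, but with the slide as a block its adjusted p was 0.0517. Leaving out any 1 array other than GFP- cluster replicate 2 gave values from 0.30 to 0.43 and adjusted p from 0.0577 to 0.117.

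The second Nfkb1 probe (mm9 chr3:135247621-135247680) gave a smaller picture of the same shape. GFP+ cluster over GFP+ endothelial cells, it differed by 0.33 (SE 0.05, adjusted p = 0.00471 in a limma fit of 24364 single probes, of which 50.5% passed in this comparison). GFP+ over GFP-, it differed by 0.04 in cluster cells (adjusted p = 0.645, beside 31.4% of probes called) and by -0.17 in endothelial cells (adjusted p = 0.0467, beside 51.5%). Its interaction was 0.21 (SE 0.08, adjusted p = 0.0950, beside 30.9%), and among GFP- cells it differed by 0.12 between cluster and endothelial cells (adjusted p = 0.157, beside 23.8%), so the Nfkb1 interaction passed on 1 probe of 2 while the higher level in GFP+ cluster than GFP+ endothelial cells passed on both.

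Relb encodes RelB, the subunit of the alternative route. The brightest Relb probe read -0.92 and -0.82 in GFP+ cluster cells against -0.39 and -0.41 in GFP- cluster cells, and -0.79 and -0.67 in GFP+ endothelial cells against -0.34 and -0.24 in GFP- endothelial cells. All 4 GFP+ arrays lay below all 4 GFP- arrays. Relb was 1.38-fold lower in GFP+ than in GFP- cluster cells (log2 fold change -0.47, SE 0.07, adjusted p = 0.00470, limma) and 1.36-fold lower in GFP+ than in GFP- endothelial cells (-0.44, SE 0.07, adjusted p = 0.00395). The endothelial value was -0.31 relative to the median of all genes in that comparison, which was -0.13 with this scaling and -0.03 after quantile normalization. The second probe gave -0.40 in cluster cells (adjusted p = 0.00321, probe fit) and -0.38 in endothelial cells (adjusted p = 0.00276). Among GFP+ cells, cluster over endothelial, Relb differed by -0.14 on the brightest probe (adjusted p = 0.146) and by -0.16 on the second (adjusted p = 0.0490, probe fit). The cluster and endothelial GFP differences of the brightest probe differed by -0.03 (95% confidence interval -0.26 to 0.21, adjusted p = 0.857).

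Nfkb2 encodes p100, the precursor of p52. It read -1.18 and -1.10 in GFP+ cluster cells, -0.91 and -0.80 in GFP- cluster cells, -0.99 and -0.84 in the GFP+ endothelial sort and -0.76 and -0.81 in GFP- endothelial cells. The GFP+ cluster arrays were the lowest and the other 3 groups ran close together. Nfkb2 was 1.22-fold lower in GFP+ than in GFP- cluster cells (log2 fold change -0.28, SE 0.07, adjusted p = 0.0321, limma) and 1.17-fold lower in GFP+ cluster than in GFP+ endothelial cells (-0.22, SE 0.07, adjusted p = 0.0480). The first of these missed the threshold when any 1 array of GFP+ cluster, GFP- cluster or GFP- endothelial cells was left out (-0.34 to -0.23, adjusted p from 0.0616 to 0.147). The second missed it without any 1 array other than GFP+ endothelial replicate 1, with values from -0.26 to -0.15, the smallest without GFP+ endothelial replicate 2. Rel encodes c-Rel, a subunit best known in lymphocytes, and its single probe was not well above background on any of the 8 arrays, so no fold is given. The listed coordinates of that 60-base probe (mm9 chr11:23641729-23641743) span 15 bases.

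Nfkbia encodes IκBα, which NF-κB itself induces and which then shuts the response off. It read 3.28 and 3.20 in GFP+ cluster cells, 3.37 and 3.28 in GFP- cluster cells, 3.20 and 3.13 in the GFP+ endothelial sort and 3.16 and 3.19 in GFP- endothelial cells. The GFP+ and GFP- arrays overlapped within both classes. The GFP+ over GFP- difference was -0.08 (95% confidence interval -0.22 to 0.06, adjusted p = 0.320, limma) in cluster cells and -0.01 (-0.15 to 0.13, adjusted p = 0.897) in endothelial cells. The sign of both differences turned under quantile normalization (0.01 and 0.15), so no direction is given. Between GFP- cluster and GFP- endothelial cells Nfkbia differed by 0.15 (adjusted p = 0.111), which passed after quantile normalization (0.25, adjusted p = 0.0300). Nfkbie encodes IκBε. Its GFP difference was -0.09 (-0.31 to 0.12, adjusted p = 0.454) in cluster cells and 0.10 (-0.11 to 0.31, adjusted p = 0.362) in endothelial cells, with levels between -1.01 and -0.76 on all 8 arrays.

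Nfkbib encodes IκBβ and has 3 probes, which did not give 1 result. The brightest Nfkbib probe (mm9 chr7:29544160-29544219) lay between 1.14 and 1.32 on all 8 arrays, and its GFP difference was 0.04 (adjusted p = 0.643) in cluster cells and -0.11 (adjusted p = 0.187) in endothelial cells. A second probe (mm9 chr7:29545252-29546647) read -1.46 and -1.43 in GFP+ endothelial cells against -0.90 and -1.03 in GFP- endothelial cells, a difference of -0.48 (SE 0.08, adjusted p = 0.00505, probe fit). The third (mm9 chr7:29543270-29543329) read -2.88 and -2.97 in GFP+ endothelial cells against -3.47 and -3.47 in GFP- endothelial cells, a difference of 0.54 (SE 0.10, adjusted p = 0.00788) in the opposite direction. In cluster cells the same 2 probes differed by -0.15 (adjusted p = 0.214) and 0.31 (adjusted p = 0.0707). Among GFP- cells, cluster over endothelial, the second probe also passed (-0.31, adjusted p = 0.0407), while the third differed by 0.19 (adjusted p = 0.236). The gene's direction is therefore not settled by these arrays.

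**Figure D2:**
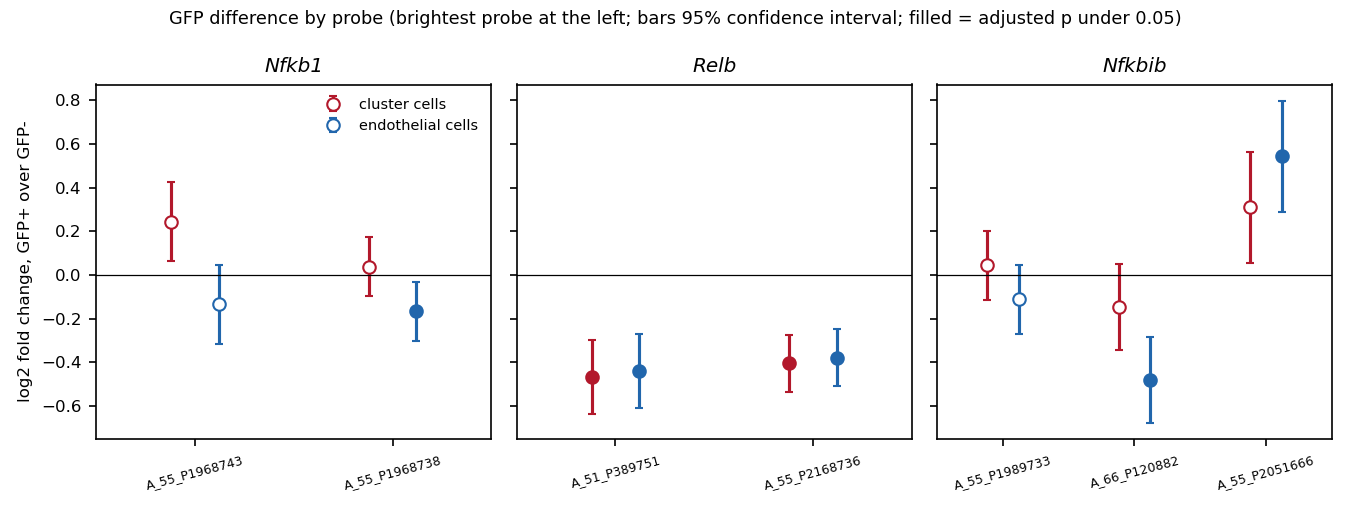
Log2 fold change of GFP+ over GFP- in cluster cells (red) and endothelial cells (blue) for each probe of the 3 members with several probes, brightest probe at the left of each panel, with bars for the 95% confidence interval and filled symbols for an adjusted p under 0.05. The 2 Relb probes lie side by side below 0, while 2 of the 3 Nfkbib probes pass in endothelial cells in opposite directions.

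Tnfaip3 encodes A20, which removes and attaches ubiquitin chains upstream of the IκB kinases and ends the response, and which NF-κB induces. It read 0.04 and -0.0028 in GFP+ cluster cells against -0.66 and -0.70 in GFP- cluster cells, and -0.16 and -0.20 in GFP+ endothelial cells against -1.30 and -1.03 in GFP- endothelial cells. No groups overlapped. Tnfaip3 was 1.63-fold higher in GFP+ than in GFP- cluster cells (log2 fold change 0.70, SE 0.09, adjusted p = 0.00317, limma) and 1.97-fold higher in GFP+ than in GFP- endothelial cells (0.98, SE 0.09, adjusted p = 0.000839), or 1.11 on the log2 scale relative to the median of all genes. Within slide 1 and slide 2 the difference was 0.71 and 0.69 in cluster cells, and 1.13 and 0.82 in endothelial cells. The cluster difference minus the endothelial one was -0.28 (95% confidence interval -0.60 to 0.04, adjusted p = 0.156), and without GFP- endothelial replicate 2 it was -0.41 (adjusted p = 0.0303), against -0.14 (adjusted p = 0.232) without GFP- endothelial replicate 1. Among GFP- cells Tnfaip3 was 1.39-fold higher in cluster than in endothelial cells (0.48, SE 0.09, adjusted p = 0.0181), the only member of 9 whose brightest probe passed there, beside 24.3% of all genes. With normexp the difference was 0.17 (adjusted p = 0.624). That call was lost without GFP- cluster replicate 1 (0.46, adjusted p = 0.0929) and without GFP- cluster replicate 2 (0.50, adjusted p = 0.0831). Among GFP+ cells the difference between cluster and endothelial cells was 0.20 (adjusted p = 0.115), and without either 1 of the GFP- endothelial arrays its adjusted p was 0.0263.

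Ikbkb encodes IKKβ, the kinase that marks IκB for degradation. Its level was -0.17 and -0.03 in GFP+ cluster cells against -0.67 and -0.60 in GFP- cluster cells. In endothelial cells it was 0.03 and -0.01 in GFP+ cells against -0.83 and -0.73 in GFP- cells. All 4 GFP+ arrays lay above all 4 GFP- arrays. Ikbkb was 1.45-fold higher in GFP+ than in GFP- cluster cells (log2 fold change 0.54, SE 0.07, adjusted p = 0.00296, limma) and 1.72-fold higher in GFP+ than in GFP- endothelial cells (0.78, SE 0.07, adjusted p = 0.000711), or 0.91 relative to the median of all genes. The 2 differences differed by -0.25 (95% confidence interval -0.49 to -0.01), which did not pass after adjustment over all genes (adjusted p = 0.103). Cluster over endothelial cells, Ikbkb differed by -0.11 (-0.28 to 0.06, adjusted p = 0.230) among GFP+ cells and by 0.14 (-0.03 to 0.31, adjusted p = 0.194) among GFP- cells. The other subunits of the kinase complex, Chuk (IKKα) and Ikbkg (NEMO), differed by -0.10 and -0.02 in cluster cells and by 0.01 and -0.02 in endothelial cells, with adjusted p from 0.218 to 0.905.

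**Figure D3:**
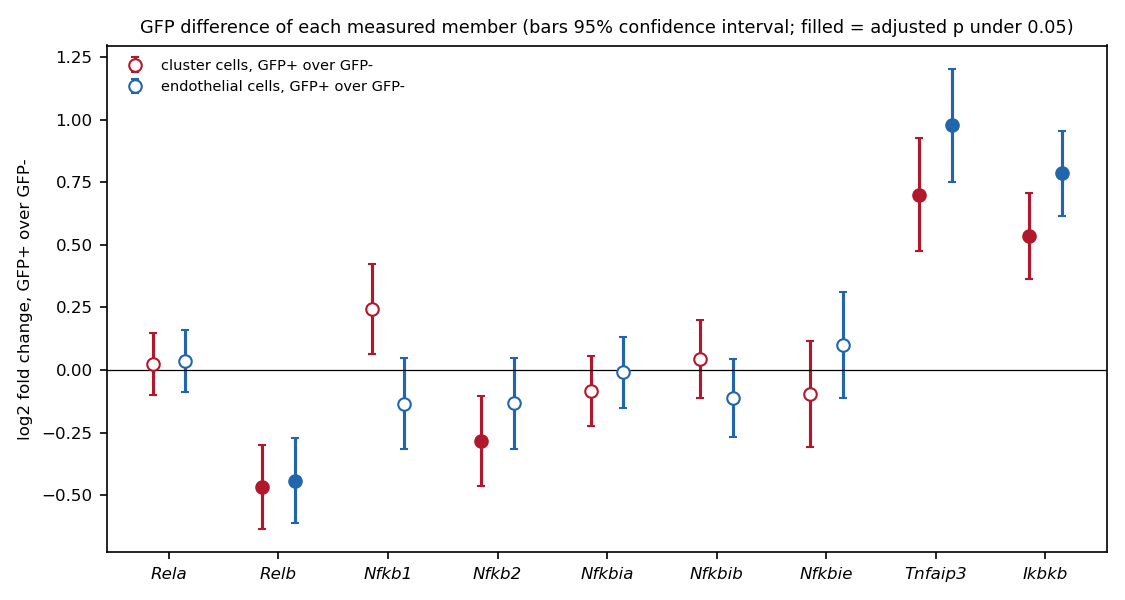
Log2 fold change of GFP+ over GFP- cells for the 9 measured members, in cluster cells (red) and endothelial cells (blue), with bars for the 95% confidence interval and filled symbols for an adjusted p under 0.05. Tnfaip3 and Ikbkb lie above 0 and Relb below 0 in both classes, and the intervals of Rela, Nfkbia, Nfkbib and Nfkbie include 0 in both.

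Between the classes, 3 of the 9 members passed among GFP+ cells, Nfkb1 and Rela higher and Nfkb2 lower in cluster than in endothelial cells, beside 50.4% of all genes. Ordered by group mean, Tnfaip3 was highest in GFP+ cluster cells, then GFP+ endothelial, GFP- cluster and GFP- endothelial cells. The top pair did not pass against each other (adjusted p = 0.115), while the steps below it were 0.50 (adjusted p = 0.00854, beside 47.1% of all genes called between GFP- cluster and GFP+ endothelial cells) and 0.48 (adjusted p = 0.0181). Between GFP+ cluster and GFP- endothelial cells, the top and bottom groups, Tnfaip3 differed by 1.18 (SE 0.09, adjusted p = 0.000284, beside 50.6% of all genes called). For Ikbkb, the 2 GFP+ groups did not pass against each other, nor did the 2 GFP- groups, and the step between the pairs was 0.54 (adjusted p = 0.00296). Relb had the reverse order of pairs, with GFP- endothelial and GFP- cluster cells on top and a step of 0.33 (adjusted p = 0.0123) to GFP+ endothelial cells. In Nfkb1 no single step between neighbours passed, although its top and bottom groups differed, as given above. Of the steps of Nfkb2 only the lowest passed, and no step of Rela, Nfkbia, Nfkbib or Nfkbie did.

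The levels of the markers of other cell types moved with the GFP groups as well. The summed linear level of 13 macrophage markers was 29.3 to 29.5 in GFP+ cluster cells against 10.3 to 10.53 in GFP- cluster cells, and 10.9 to 11.4 in GFP+ endothelial cells against 4.84 to 4.94 in GFP- endothelial cells. Of these, 12 were tested and all 12 were higher in GFP+ cells in both classes, and Cd163 was not well above background on any array. For 11 erythroid markers the sum was 94.2 to 96.4 in GFP+ cluster cells against 705 to 743 in GFP- cluster cells, and 103 to 110 in GFP+ endothelial cells against 458 to 483 in GFP- endothelial cells, with 10 of 11 lower in GFP+ cells in both classes. The part of these markers in the Tnfaip3, Ikbkb and Relb differences was not tested. Sums for 7 platelet markers ran opposite ways in the 2 classes, 7.67 to 7.89 in GFP+ against 4.90 to 4.95 in GFP- cluster cells and 9.20 to 9.86 in GFP+ against 19.2 to 19.4 in GFP- endothelial cells. By GFP, 5 of the 7 were called higher and 1 lower in cluster cells, and 1 higher and 5 lower in endothelial cells. On each GFP+ cluster array 5 of the 7 were well above background. For 9 mesenchymal markers the sum was 11.6 to 11.9 in GFP+ against 20.5 in GFP- cluster cells, and 20.6 to 21.2 in GFP+ against 28.7 to 29.3 in GFP- endothelial cells, with 1 called higher and 8 lower in each class. As a check of the sorts, 10 endothelial markers summed to 232 to 235 in GFP+ against 296 to 308 in GFP- cluster cells, and to 293 to 316 in GFP+ against 325 to 337 in GFP- endothelial cells. In cluster cells 5 of these were called lower in GFP+ cells and 5 did not pass. In endothelial cells 3 were higher, 3 lower and 4 did not pass (median log2 fold change 0.04, against -0.13 for all genes), so the lower sum there does not stand for the list. The sum of 10 blood markers was 50.2 to 51.6 in GFP+ against 14.8 to 15.02 in GFP- cluster cells, and 7.92 to 8.04 in GFP+ against 5.43 to 5.46 in GFP- endothelial cells, and all 10 were well above background on every array of the 4 groups.

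Among the members, the levels over the 8 arrays went together or apart as follows, given as a description of 4 groups with 2 arrays each. Tnfaip3 and Ikbkb had a Pearson correlation of 0.92, and Relb had -0.94 with Tnfaip3 and -0.91 with Ikbkb. Nfkb2 had 0.87 with Relb and -0.84 with Tnfaip3, and Nfkb1 had 0.79 with Rela. Pairs whose products are not dimer partners were about as strong, with 0.76 for Rela and Nfkbia and -0.69 for Nfkbib and Nfkbie. The group means of Rela and Nfkb2 spanned only 0.20 and 0.36 log2 units. Among 4884 genes that were well above background on all arrays and spanned at least 0.5 log2 units, those most like Tnfaip3 were Ankrd44 (0.992), Map3k8 (0.991) and Art4 (0.990). Those most like Ikbkb were Slc46a3 (0.995), Zmynd15 (0.993) and Stat6 (0.991). Relb was followed most closely by Lca5l (0.993), Pcbp3 (0.990) and Galnt12 (0.989). The arrays share the RNA of 4 groups sorted from 1 pool of embryos, so these coefficients rest on 4 group values that are not independent. The genes named as most alike were picked as the highest of 4884, so their coefficients are no test of likeness.

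Il1r1, which encodes the interleukin-1 receptor, and Myd88, whose product carries the signal from that receptor and from Toll-like receptors, were higher in GFP+ cells in both classes. Of 20 genes upstream in that route, 7 were higher, 1 was lower and 12 did not pass between GFP+ and GFP- cluster cells (median log2 fold change 0.12, against -0.08 for all genes tested, of which 11.8% were called higher and 20.9% lower). The tumor necrosis factor receptor gene Tnfrsf1b (1.30, adjusted p = 0.00385, limma), the kinase gene Irak4 (0.77, adjusted p = 0.00974), the adaptor gene Myd88 (0.64, adjusted p = 0.000295) and the interleukin-1 receptor gene Il1r1 (0.55, adjusted p = 0.0100) led, and the adaptor gene Tab3 fell by 0.31. In endothelial cells 6 were higher, 2 were lower and 12 did not pass (median 0.09, against -0.13 for all genes, of which 18.1% were called higher and 33.3% lower). There Il1r1 (1.41), Myd88 (0.40), the ubiquitin ligase gene Traf6 (0.37) and the kinase gene Ripk1 (0.32) were higher in GFP+ cells, and the adaptor genes Traf2 (-0.29) and Tradd (-0.18) were lower. Relative to the endothelial median these values are each 0.13 higher.

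Upstream of the alternative route, 1 of 8 genes was higher and 1 lower between GFP+ and GFP- cluster cells, the ubiquitin ligase gene Birc3 (0.68) and the receptor gene Cd40 (-0.36), with 6 that did not pass. The list median was -0.0008, against -0.08 for all genes tested, of which 11.8% were called higher and 20.9% lower. Between GFP+ and GFP- endothelial cells 4 were higher, 1 was lower and 3 did not pass. The list median there was 0.21, against -0.13 for all genes, of which 18.1% were called higher and 33.3% lower. The 4 higher in this list were the ligase genes Birc2 (0.50) and Birc3 (0.42), the receptor gene Tnfrsf11a (0.45) and the adaptor gene Traf3 (0.25). Map3k14, which encodes NIK, was lower in GFP+ endothelial cells (-0.35, SE 0.05, adjusted p = 0.00275, limma). In cluster cells its GFP difference did not pass (-0.15, adjusted p = 0.0583, limma). Relb was also lower in GFP+ endothelial cells, as given above, while Nfkb2 (-0.13) and the receptor gene Ltbr (-0.11) did not pass there. Whether the alternative route as a whole differed was not tested.

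Among 12 other inhibitor and atypical IκB genes, 5 were higher, 1 was lower and 6 did not pass between GFP+ and GFP- cluster cells (median 0.24). All genes tested had a median of -0.08, with 11.8% called higher and 20.9% lower. Of the 12, the RNA-decay gene Zfp36 (1.63, adjusted p = 0.00851, limma), the atypical IκB gene Nfkbid (0.89), the A20-binding protein gene Tnip2 (0.64) and the atypical IκB gene Bcl3 (0.41) were highest, and Commd1, whose product promotes RelA turnover, was lower (-0.17). Between GFP+ and GFP- endothelial cells 7 of them were higher, 1 was lower and 4 did not pass (median 0.27). All genes had a median of -0.13 there, with 18.1% called higher and 33.3% lower. Nfkbiz (0.90), Nfkbid (0.85), Bcl3 (0.64) and Tnip2 (0.61) were higher and Commd1 was lower (-0.48). Zfp36 also passed (adjusted p = 0.00456) but was well above background on only 1 of the 2 GFP- endothelial arrays.

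For known NF-κB target genes, 21 of 28 were tested, while Sele, Cxcl2, Il6, Csf2 and Mmp9 were not well above background on any array and Bcl2a1a and Bcl2a1b have no probe of that name. Between GFP+ and GFP- cluster cells 12 were called higher, 2 lower and 7 did not pass, beside 11.8% of all genes called higher and 20.9% lower (median 0.43 with or without dim genes at their bound). Of the 12, 4 (Bcl2a1d, Ptgs2, Il1b and Tnf) were not well above background on both GFP- arrays and met the filter on dim probes through the GFP+ groups, so their direction is not independent of that filter. The adhesion gene Selp (1.85), the chemokine genes Ccl2 (1.33) and Cxcl10 (0.72) and the adaptor gene Traf1 (0.82) were higher, and the protease gene Plau (-1.10) and the nitric oxide synthase gene Nos2 (-0.80) were lower. Some targets were not well above background in GFP- cluster cells and have only a lower limit: the cytokine gene Il1b was higher in GFP+ cells by at least 1.94-fold and the cyclooxygenase gene Ptgs2 by at least 1.82-fold. Such a limit sets the mean of the bright group against the dimmest signal that counted as well above background on the arrays of the dim group, or against the dim probe itself where that was brighter. The last case held for the survival gene Bcl2a1d, whose paralogs may share its probe. Its 4.20-fold in cluster cells is therefore the fitted difference itself (2.07 on the log2 scale) and no separate limit.

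Between GFP+ and GFP- endothelial cells 13 targets were called higher, 4 lower and 4 did not pass, beside 18.1% of all genes called higher and 33.3% lower (median 0.55, or 0.51 with dim genes at their bound). Of these, 4 of the 13 (Il1b, Bcl2a1d, Ptgs2 and Tnf) and 1 of the 4 (Ccl5) were not well above background on at least 1 of the 4 arrays compared, and no GFP- endothelial array had Il1b, Tnf or Bcl2a1d well above background. Il1b, Tnf and Bcl2a1d met the filter on dim probes through the GFP+ groups, so their direction is not independent of that filter. Ptgs2 met it through GFP+ cluster cells. It was well above background on 1 GFP+ and 0 GFP- endothelial arrays, and its difference at the bound was 0, so its call carries no measured difference. The chemokine genes Cxcl1 (1.31) and Cxcl10 (0.85), the growth factor gene Csf1 (0.89) and the adhesion gene Icam1 (0.80) were highest among those measured in both groups, and Plau (-0.97), Nos2 (-0.51) and Sod2 (-0.16) were lower. Il1b was at least 2.26-fold, Tnf at least 2.22-fold and Bcl2a1d at least 2.56-fold higher in GFP+ endothelial cells. Several of these, such as Il1b and Tnf, are also expressed by macrophages, whose marker sums are given above. A κB match lay before the start of 9 of the 21 target genes with a promoter entry, 4 of 10 other inhibitors, 2 of 16 canonical and 1 of 7 alternative upstream genes. Among all 27018 genes with a promoter entry the share was 4.46%. The target list was chosen as known NF-κB targets, so its share is no result of these arrays.

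**Figure D4:**
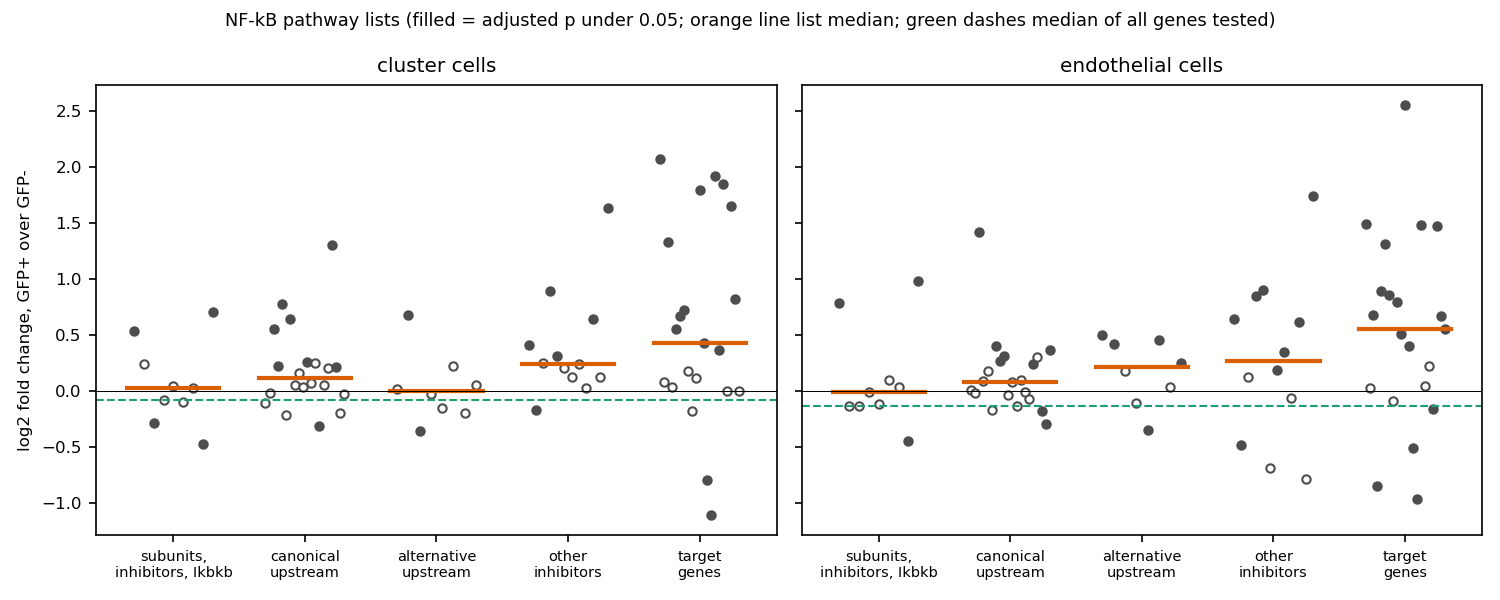
Log2 fold change of GFP+ over GFP- for every tested gene of the members and of the 4 pathway lists, in cluster cells (left) and endothelial cells (right), with filled points for an adjusted p under 0.05, orange lines for list medians and green dashes for the median of all genes tested. For genes that were dim in 1 group the plotted value is the fitted one, which is no lower limit and lies above or at the limit given in the text. The target genes have the highest list median in both panels, 0.43 and 0.55, and the members have medians of 0.02 and -0.01.

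Between cluster and endothelial cells, Ccl2 was higher in cluster cells both among GFP+ cells (1.81) and among GFP- cells (1.16). Among GFP+ cells, the canonical list had 7 genes higher and 2 lower of 20, the alternative list 2 higher and 4 lower of 8, the other inhibitors 5 higher and 2 lower of 12, and the targets 11 higher and 3 lower of 21, beside 26.1% of all genes called higher and 24.2% lower. Not well above background on at least 1 of the 4 arrays compared were 1 of the 7 canonical genes called higher, 2 of the 5 inhibitors and 3 of the 11 targets (Selp, Ptgs2 and Ccl5), and Ccl5 was not so on any GFP+ cluster array, so its call carries no measured difference. Cd40 (-1.12), Tnfrsf12a (-0.45), Birc2 (-0.41) and Map3k14 (-0.29) of the alternative route were lower in GFP+ cluster cells, and Cyld (0.69), which encodes a deubiquitinase that restrains the pathway, was higher. Among GFP- cells the canonical list had 1 higher and 1 lower, the alternative list 2 higher and 2 lower, the other inhibitors 4 higher and 1 lower, and the targets 8 higher, beside 11.9% of all genes called higher and 12.4% lower. Of those 8 targets, 3 (Selp, Tnf and Ptgs2) were not well above background on at least 1 of the 4 arrays compared, and Ptgs2 was not so on any array of either group, so its call carries no measured difference. Cd40 (-0.58) and Map3k14 (-0.48) were lower in GFP- cluster than in GFP- endothelial cells too, and Cyld was higher (0.57, SE 0.10, adjusted p = 0.0158, limma).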

How the data were processed

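Gene expression was measured on 8 one-colour arrays, 2 for each of 4 sorted groups. Per the labels' protocols, RNA of each group was split in 2, amplified and labelled with Cy3. Per the file headers and the submitters' processing notes, Agilent Feature Extraction 10.10.1.1 gave the deposited intensity values, of which the processed signal is already background-corrected. A deposited table from the authors holds normalized intensity values on a linear scale, with a median of 198 in each column. It served as an alternative, with its normalization not given in the sources used here.

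Levels here are log2 of the processed signal less the 75th percentile of each array's non-control probes. Outlier spots were left out (10 probes, none of a member), leaving 39419 probes. Probe names were updated through RefSeq accessions (26049 probes), were current symbols (3194) or kept the file's name (10176). The brightest probe stood for a gene. Testing was limited to the 19538 genes with both arrays of some group well above background. limma 3.58.1 in R 4.3.3, with the package data.table in version 1.17.8, fitted 4 group means to 8 arrays, two-sided, with Benjamini-Hochberg adjustment over all genes and a threshold of 0.05. The fit was also run on simulated arrays with independent noise and few changed genes. These arrays share slides and have many called genes, so that run does not bear on the calls given here. Probe coordinates are mm9, from the files. Promoters are RefSeq's on GRCm38.p6.

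Replicate 1 of every group lay on 1 slide and replicate 2 on another. Deviations of the same number correlated across groups (r from 0.139 to 0.359), so the numbers pair the arrays. Position on the slide and group cannot be told apart. The number of arrays limits precision.

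Named were all members with every probe, at most 4 genes per list and direction with the largest called change among those measured in both groups (all where 3 or fewer passed), the sort genes, and the 3 genes most correlated with each member spanning 0.5 log2 units. Those of Nfkb1 are not reported here. Chuk, Ikbkg and genes with a dim side were named after their values were seen. The members and lists were chosen with earlier results of these data known. Alternatives were background correction by normexp (offset 50), quantile normalization, the authors' table, other filters and probe summaries, the slide as a block, robust moderation and leaving out each array.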

Additional observations from a re-analysis of the deposited data

Results flagged for a closer look

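The GFP difference of Nfkb1 differed between the classes. GFP+ over GFP-, Nfkb1 differed by 0.24 in cluster cells and by -0.13 in endothelial cells on the log2 scale, and the difference between them was 0.38 (interaction in limma, SE 0.10, adjusted p = 0.0408). It was positive on both slides (0.39 and 0.36). The second Nfkb1 probe gave 0.21 (adjusted p = 0.0950). The call was lost with the slide as a block (adjusted p = 0.0517) and without any 1 array other than GFP- cluster replicate 2. The cause was not tested.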

How the results depend on the processing

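Over 17 alternatives, 765 values of the 9 measured members (45 differences) were recomputed: 674 kept their direction and side of the threshold, 48 kept the direction but no longer passed, 18 newly passed and 25 changed sign. Every change of sign was in a difference that had not passed. The GFP differences of Tnfaip3, Ikbkb and Relb in both classes and that of Nfkb1 between GFP+ cluster and GFP+ endothelial cells passed in 16 of 17, all but normexp. The slide as a replicate block ended the Rela call (adjusted p = 0.0521) and the Nfkb1 interaction (adjusted p = 0.0517, 0 members against 1) and changed no other call of a member in the 5 main comparisons. With 2 technical arrays a group, biological spread is not covered, and dim probes such as that of Rel limit what can be measured.

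With normexp, 0 members passed in each of the 7 comparisons in limma (0 to 3 at an unadjusted p under 0.05) and 0 pathway genes in the 5 main ones (1 to 14 unadjusted), while 14 to 134 of all genes passed in the 4 group comparisons and 1 in the interaction. Without a filter on dim probes, 1 member passed between GFP+ cluster and endothelial cells, against 3, 0 passed between GFP- classes (2 unadjusted) and 0 in the interaction (1 unadjusted), with 11 pathway genes between GFP- classes, against 19, and 7 in the interaction, against 16. Of all 31890 genes then tested, 9069, 1466 and 2743 passed in these comparisons, against 9840, 4742 and 6085 of 19538. Between GFP- classes, 3 members passed with quantile normalization, the authors' table or robust moderation, and 2 among genes well above background on all arrays, against 1. All genes passing there numbered 3827, 3883 and 6009 of 19538, and 5238 of 16471, against 4742 of 19538. The share of called genes that were higher in GFP+ endothelial cells was 35.2%, against 50.7% after quantile normalization and 48.4% in the authors' table.

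With 1 array left out, 3 to 4 members passed by GFP in cluster cells, 3 in endothelial cells, 1 to 2 between GFP+ classes, 0 to 1 between GFP- classes and 0 to 1 in the interaction. GFP+ cluster against GFP- endothelial cells gave 4 to 6, and GFP- cluster against GFP+ endothelial cells 2 to 4. With all arrays these were 6 and 4 of 9, beside 50.6% and 47.1% of all genes. The share of all genes with 1 array left out was not taken for those comparisons, so these ranges are not read further. Pathway genes called were 22 to 28 and 27 to 38 by GFP in cluster and endothelial cells, 26 to 32 and 11 to 18 between GFP+ and GFP- classes, and 9 to 13 in the interaction.

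Whichever array was left out, fewer of all genes also passed by GFP in cluster cells, between GFP+ classes, between GFP- classes and in the interaction. By GFP in endothelial cells fewer passed too, except without GFP+ cluster replicate 2, where the number hardly changed. The counts with 1 array left out in these comparisons therefore do not set the members or pathway genes apart from other genes. The changed signs were these. In cluster cells by GFP, Nfkbia was 0.0127 (quantile) and 0.0100 (authors' table), Rela from -0.0168 without GFP+ cluster replicate 1 to 0.0665 without replicate 2, and Nfkbib -0.0069 without GFP- cluster replicate 1, up to 0.0957 with another array left out. In endothelial cells by GFP, Nfkbia was 0.40 (normexp), 0.15 (quantile), 0.14 (authors' table), 0.0220 without GFP+ replicate 2, 0.0023 without GFP- replicate 2 and as low as -0.0409 without GFP+ replicate 1, Nfkbib 0.10 (normexp), and Nfkbie -0.14 (normexp) and from -0.0138 without GFP+ replicate 1 to 0.21 without replicate 2. Nfkbie between GFP+ classes was 0.0296 without GFP+ endothelial replicate 1 and -0.20 without replicate 2. Between GFP- classes normexp gave Nfkb1 -0.0637, Nfkbib 0.0740, Nfkbie -0.12 and Ikbkb -0.0187. In the interaction, normexp gave Relb 0.0024, Nfkbib -0.0128 and Nfkbie 0.12. Leaving out 1 array, the interaction was 0.0292 and 0.0194 for Rela (GFP+ cluster replicate 2, GFP- endothelial replicate 1) with a lowest value of -0.0541, and 0.0262, 0.0337 and 0.0256 for Relb (GFP+ cluster replicate 1, GFP+ endothelial replicate 2, GFP- endothelial replicate 1) with a lowest value of -0.0849. The causes were not tested.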
